A study of Mus musculus with 2 samples.

Results

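Dendritic cells (DCs) that mature change what they show to T cells and where they go, and the 10 genes described here serve that change. They were taken by symbol from the 26124 genes of the matrices, 1 row each, as the genes of DC costimulation and migration. They are Ccr7 and Fscn1 (migration), Cd83 and Relb (maturation), Cd40, Icosl, Cd80 and Cd86 (costimulation), and Cd274 and Pdcd1lg2 (coinhibition). Their levels were read across dendritic, monocyte, macrophage and B cell classes in 2 droplet single-cell RNA libraries of mouse spleen, 1 library from 1 mouse per condition, in which the study set the spleen of a sickle cell disease (SCD) mouse against that of a control littermate. Both mice were 12 to 16 weeks old and untreated, and both were homozygous for the α-globin deletion Hbatm1Paz. The control, called wild-type, was heterozygous for the β-globin deletion Hbbtm1Tow with a single copy of the human sickle globin transgene Tg(HBA-HBBs)41Paz, so it was not free of the transgene. The SCD mouse was homozygous for that deletion and for the transgene. Cells were pulled down with beads coated with an antibody to F4/80, a macrophage surface protein, so the libraries are macrophage enrichments that also held DCs and B cells.

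A DC that takes up antigen in the tissue and then matures loads peptides on MHC class II, raises the ligands that a T cell needs for a second signal, and travels to T cell zones. CCR7 is the chemokine receptor that guides this travel, and fascin-1, the product of Fscn1, bundles actin in the dendrites of mature DCs. CD80 and CD86 engage CD28 and CTLA-4 on T cells, ICOSL engages ICOS, and CD40 receives CD40L from helper T cells, while PD-L1 (Cd274) and PD-L2 (Pdcd1lg2) engage the inhibitory receptor PD-1. RELB is the NF-kB subunit of the alternative pathway, and CD83 is a surface protein used to mark mature DCs that also stabilizes MHC class II and CD86.

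The kept cells numbered 19418 in the wild-type-labelled library and 12279 in the SCD-labelled library, with medians of 4115.5 and 4571 UMIs (unique molecular identifiers, 1 per captured RNA molecule). The libraries shared 65 barcodes among kept cells. The β-globin genes went against the labels. Hbb-bs, deleted in SCD mice, was in erythroid-like cells at 174 CPM (UMIs of a gene per 1000000 UMIs of the cells) under the label wild-type and at 64324 CPM under the label SCD. Hba-a1, deleted in both mice, was counted at 32924 and 36087 CPM there. The libraries are therefore named by their labels throughout, and every direction between them rests on labels that these genes contradict. Cells were clustered without the 10 genes, and clusters were named "-like" from marker genes. DC-like clusters were 1 mature DC-like cluster, with 443 cells (2.28% of kept cells, exact 95% interval 2.08 to 2.50) and 663 cells (5.40%, 5.01 to 5.81), and 4 cDC2-like clusters, with 2512 and 2993 cells. No cluster of cDC1-like or plasmacytoid DC-like cells was found. A further cluster led by Cd209a stayed unnamed. It otherwise met the rule for Ly6c-low monocytes, but DC markers outnumbered markers of that class among its leading genes. The 9 cDC2 markers summed to 812 and 1139 CPM in it under the labels wild-type and SCD. In cDC2-like cells they summed to a similar 795 and 1271 CPM. In mature DC-like cells all 10 markers of the class had UMIs in each library, with a summed level of 5555 and 9748 CPM. RNA of macrophages was present in them too: the 10 red pulp macrophage markers, none of them at 0, summed to 9668 CPM in the wild-type-labelled library and 3430 CPM in the SCD-labelled library. The 10 erythroid markers summed to 510 and 140 CPM. Below, pairs of values put the wild-type label first and the SCD label second, a level is the CPM of UMIs summed over the cells of a class, and ranges are 95% exact intervals, which cover counting error alone. No test between conditions was made, since each has a single mouse. Doublets were marked by a different rule in each library, so shares of marked cells are not comparable between the libraries.

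The promoters of 5 of the 10 genes were matched in RefSeq, and 4 are shown because they set a pair of genes at high level in mature DC-like cells (Fscn1 and Icosl) beside the neighbouring ligand genes Cd274 and Pdcd1lg2, which lie 22823 bases apart on chromosome 19. Each stretch is on the plus strand of GRCm38.p6, ends just before the first annotated start, and has in capitals the matches, on either strand, to any of 5 motifs. The NF-kB-like motif begins with GGGA and ends with CC, with any 4 bases between. The cAMP response element is TGACGTCA. The TATA box is searched as TATAAA. The GC box is searched as GGGCGG. The AP-1-like motif is TGANTCA. No matches overlapped.
Fscn1, chr5:142960105-142960342: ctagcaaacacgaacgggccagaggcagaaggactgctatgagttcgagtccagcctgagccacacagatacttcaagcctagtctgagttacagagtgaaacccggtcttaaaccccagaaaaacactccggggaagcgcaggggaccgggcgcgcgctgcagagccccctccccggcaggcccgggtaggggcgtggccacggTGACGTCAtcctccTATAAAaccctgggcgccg
Icosl, chr10:78069118-78069301: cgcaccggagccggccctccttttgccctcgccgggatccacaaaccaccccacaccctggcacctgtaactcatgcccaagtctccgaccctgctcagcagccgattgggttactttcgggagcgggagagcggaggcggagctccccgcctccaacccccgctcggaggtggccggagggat
Cd274, chr19:29367188-29367437: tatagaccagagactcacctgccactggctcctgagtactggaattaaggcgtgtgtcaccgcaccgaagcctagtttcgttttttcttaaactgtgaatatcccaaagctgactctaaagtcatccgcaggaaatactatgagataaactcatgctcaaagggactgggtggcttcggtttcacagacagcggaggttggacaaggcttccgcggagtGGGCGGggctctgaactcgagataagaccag
Pdcd1lg2, chr19:29410669-29410918: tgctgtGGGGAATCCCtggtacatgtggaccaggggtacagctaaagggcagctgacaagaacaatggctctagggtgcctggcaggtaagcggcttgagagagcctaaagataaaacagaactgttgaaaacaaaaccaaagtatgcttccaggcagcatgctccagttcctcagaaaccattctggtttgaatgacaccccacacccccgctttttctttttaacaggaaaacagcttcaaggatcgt
The stretch of Fscn1 holds TGACGTCA, found in 1.42% of the 32851 mouse promoters of the table over the same 238 bases, and TATAAA, found in 12.0%. That of Pdcd1lg2 holds the NF-kB-like motif, found in 17.6% over 250 bases, and that of Cd274 holds GGGCGG, found in 32.7%. The Icosl stretch of 184 bases holds none of the 5 motifs. These are matches of letters and not evidence of binding.

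Within each library, 6 of the 10 genes were at least 2-fold higher in mature DC-like than in cDC2-like cells, in both libraries. Of the 9483 genes with at least 100 UMIs in these classes, 4.26% met the same rule. The 6 were Ccr7, Fscn1, Cd83, Relb, Icosl and Cd40, and the 4 others were Cd80, Cd86, Cd274 and Pdcd1lg2. Against the Cd209a-led cluster 7 genes met the rule (background 6.94% of genes), against Ly6c-low monocyte-like cells 8 (8.78%), and against macrophage-like cells 8 (9.44%). Against Ly6c-high monocyte-like cells (8.65%) and B lymphocyte-like cells (8.57%) all 10 did. Markers of mature DCs named the class, so that it differs from the others was given, and only the levels of the 10 genes, which took no part in the clustering, are read here.

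On GRCm38 with GENCODE M21 genes, Ccr7 spans chr11:99144196-99155077 (minus strand), Fscn1 chr5:142960343-142973185 (plus), Cd83 chr13:43784775-43803132 (plus) and Relb chr7:19606217-19629438 (minus). Cd40 spans chr2:165055627-165072948 (plus), Icosl chr10:78069302-78083913 (plus), Cd80 chr16:38455561-38496335 (plus) and Cd86 chr16:36603869-36666081 (minus). Cd274 spans chr19:29367455-29388095 and Pdcd1lg2 chr19:29410919-29471161, both on the plus strand.

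**Figure D1:**
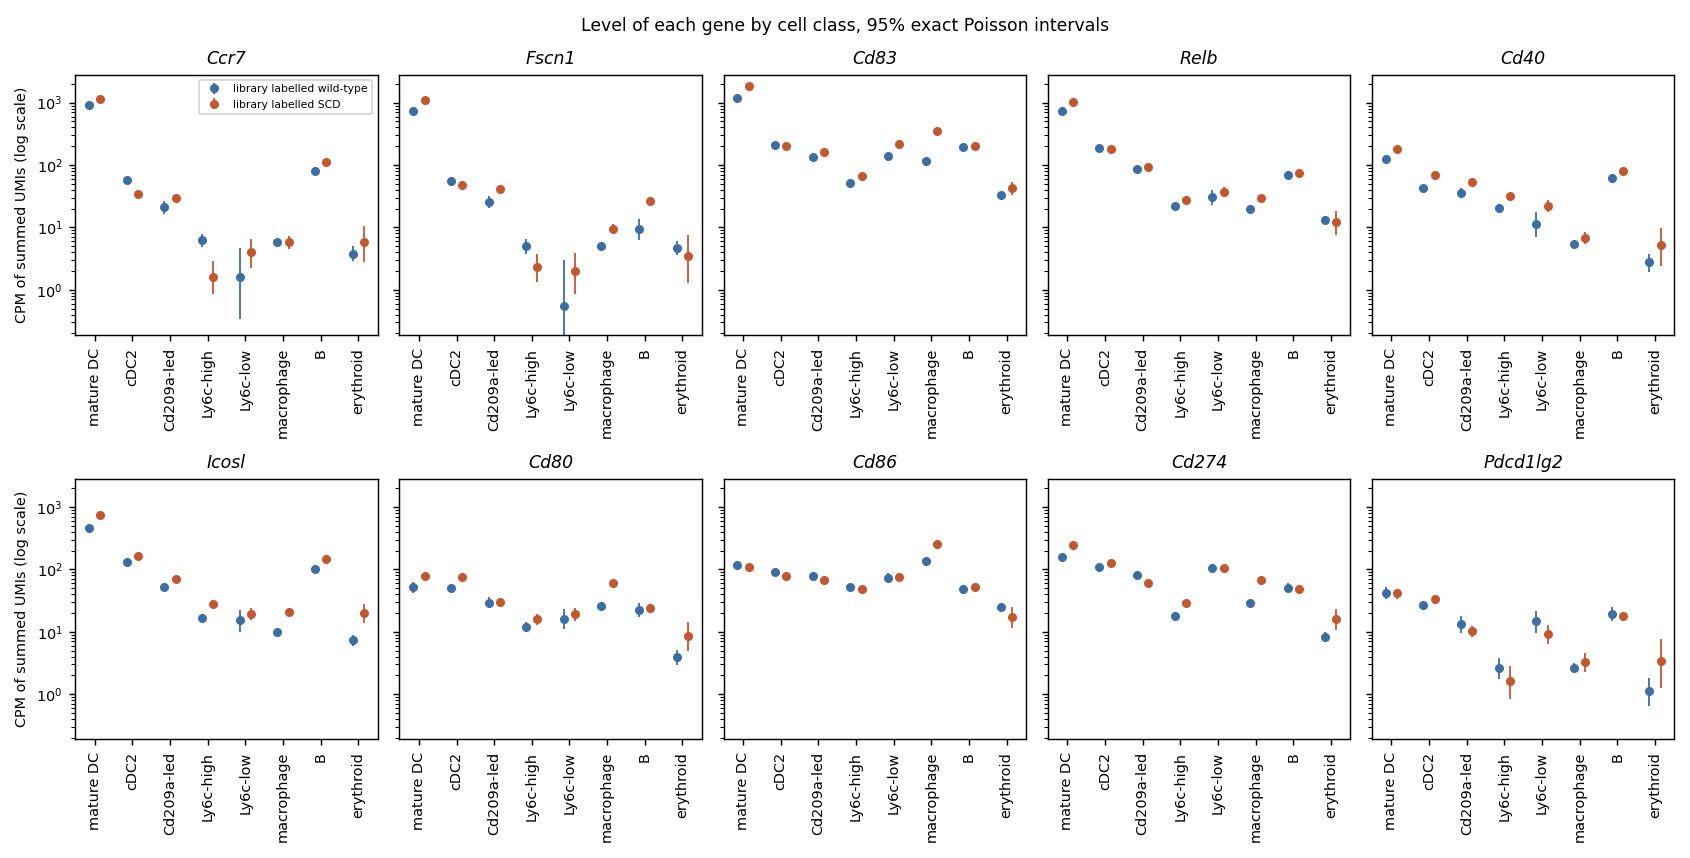
CPM of summed UMIs on a log scale for each of the 10 genes in 8 classes of cells, blue for the wild-type-labelled library and orange for the SCD-labelled library, with 95% exact Poisson intervals. Ccr7, Fscn1, Cd83, Relb, Icosl and Cd40 peak in mature DC-like cells in both libraries, and Cd86 peaks in macrophage-like cells. The lower limit of Fscn1 in Ly6c-low monocyte-like cells of the wild-type-labelled library lies below the axis.

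Levels are ordered over 7 classes: mature DC-like, cDC2-like, Ly6c-high and Ly6c-low monocyte-like, macrophage-like and B lymphocyte-like cells and the Cd209a-led cluster. T lymphocyte-like cells, 59 and 84 of them, and neutrophil-like cells, 276 and 14, are outside this order. The migration genes had the largest ratios of mature DC-like to cDC2-like cells among the 10. Ccr7 was at 925 CPM (882 to 969) and 1156 CPM (1118 to 1196) in mature DC-like cells, and at 56.6 and 34.1 CPM in cDC2-like cells. Of the 7 classes B lymphocyte-like cells came next to mature DC-like cells, at 81.0 CPM (70.9 to 92.2) and 113 CPM (106 to 120). The few T lymphocyte-like cells had it at 23.3 CPM (6.34 to 59.5) and 176 CPM (128 to 236). The share of B lymphocyte-like cells with a Ccr7 UMI was 9.21% and 11.7% after each cell had been thinned to 1000 UMIs. In erythroid-like cells, which should lack the gene, it was 0.380% and 0.730%, at median depths of 5418 and 5024 UMIs against 2808.5 and 3173 in B lymphocyte-like cells. Summed by class, monocyte-like and macrophage-like cells had Ccr7 at 6.23 CPM or less, close to the 3.80 and 5.75 CPM of erythroid-like cells. This is read as background. Single clusters were higher. The Ly6c-high monocyte-like cluster led by Vcan had 16.4 and 2.85 CPM, with 38.4% and 39.5% of cells marked as doublets. The macrophage-like cluster led by Hemgn had 11.6 and 50.9 CPM, with 38.4% and 72.9% marked. The one led by Xpo7 had 14.3 CPM in the wild-type-labelled library. Fscn1 was at 730 CPM (692 to 769) and 1086 CPM (1048 to 1124) in mature DC-like cells and at 54.8 and 47.5 CPM in cDC2-like cells. The Cd209a-led cluster had it at 25.7 CPM (20.6 to 31.6) and 41.2 CPM (37.4 to 45.3), where the interval of the SCD-labelled library overlapped that of cDC2-like cells. Fscn1 was at 9.51 and 26.5 CPM in B lymphocyte-like cells and at 5.06 and 9.50 CPM in macrophage-like cells. Ly6c-high monocyte-like cells had 5.06 and 2.31 CPM and Ly6c-low monocyte-like cells 0.542 and 1.98 CPM, against 4.72 and 3.45 CPM in erythroid-like cells.

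Cd83 and Relb followed the same order at the top but differed below it. Cd83 was at 1208 CPM (1160 to 1258) and 1825 CPM (1776 to 1875) in mature DC-like cells. In the wild-type-labelled library cDC2-like cells, at 208 CPM, and B lymphocyte-like cells, at 191 CPM, came next with overlapping intervals. In the SCD-labelled library it was macrophage-like cells, at 345 CPM (335 to 357), that came next. Relb was at 745 CPM (707 to 784) and 1039 CPM (1003 to 1077) in mature DC-like cells, then at 187 and 181 CPM in cDC2-like cells. In macrophage-like cells Relb was at 19.9 and 29.4 CPM, and in erythroid-like cells at 13.1 and 12.1 CPM.

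The costimulatory genes fell into genes of mature DCs and genes shared with other cells. Icosl was at 467 CPM (437 to 499) and 732 CPM (701 to 764) in mature DC-like cells, at 132 and 161 CPM in cDC2-like cells and at 99.7 and 145 CPM in B lymphocyte-like cells. Cd40, a receptor that B cells also carry, was at 124 CPM (109 to 141) and 181 CPM (166 to 198) in mature DC-like cells and at 62.0 and 80.3 CPM in B lymphocyte-like cells, above the 42.9 and 68.8 CPM of cDC2-like cells. Cd80 had overlapping intervals in mature DC-like and cDC2-like cells: it was at 51.2 CPM (41.6 to 62.3) against 50.5 CPM (47.0 to 54.3) in the wild-type-labelled library and at 78.1 CPM (68.2 to 89.0) against 75.8 CPM (71.6 to 80.1) in the SCD-labelled library. The log2 ratio of mature DC-like to cDC2-like cells was 0.02 and 0.04. Over the 7 classes Cd86 was the gene of the 10 whose highest level was not in DC-like cells. It was at 135 CPM (131 to 138) and 253 CPM (243 to 262) in macrophage-like cells, against 118 CPM (104 to 135) and 108 CPM (96.8 to 121) in mature DC-like cells. The intervals overlapped in the wild-type-labelled library and did not in the SCD-labelled library.

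The neighbouring ligand genes of PD-1 both had their highest level of the 7 classes in mature DC-like cells and differed below. Cd274 was at 160 CPM (142 to 179) and 249 CPM (231 to 268) in mature DC-like cells, at 108 and 127 CPM in cDC2-like cells and at 107 and 104 CPM in Ly6c-low monocyte-like cells. Of the 7 classes it was lowest in Ly6c-high monocyte-like cells, at 17.8 and 28.8 CPM. Pdcd1lg2 rested on few molecules, 826 and 1060 UMIs over all kept cells. It was at 41.9 CPM (33.3 to 52.0) and 41.1 CPM (34.1 to 49.2) in mature DC-like cells and at 26.7 and 33.6 CPM in cDC2-like cells, and the intervals of these classes overlapped in the SCD-labelled library. Pdcd1lg2 was higher in B lymphocyte-like cells, at 19.4 and 17.6 CPM, than in macrophage-like cells, at 2.67 and 3.26 CPM, by intervals that did not overlap. Cd274 had that order in the wild-type-labelled library, at 50.7 against 29.3 CPM, and the opposite one in the SCD-labelled library, at 48.7 against 68.6 CPM. Over clusters with at least 50 cells, the Pearson correlation of their log2(CPM + 1) was 0.87 over 25 clusters of the wild-type-labelled library and 0.61 over 19 clusters of the SCD-labelled library.

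Single cells carried several of the genes together in mature DC-like cells. With each cell thinned to 1000 UMIs, which left out 1032 and 281 kept cells, at least 3 of the 10 genes were found in 67.9% (63.3 to 72.3) and 80.1% (76.8 to 83.1) of mature DC-like cells. It was 7.72% and 7.08% in cDC2-like cells, 2.30% and 2.59% in B lymphocyte-like cells and 0.489% and 2.16% in macrophage-like cells. In erythroid-like cells it was 0.332% and 0.730%. A UMI of Ccr7 and one of Fscn1 in the same cell were found in 175 of 18386 cells (0.952%, 0.817 to 1.10) and in 297 of 11998 cells (2.48%, 2.20 to 2.77), a ratio of 2.60 (2.15 to 3.15) that uses no clusters. Of these cells, 116 of 175 (66.3%) and 255 of 297 (85.9%) lay in the mature DC-like cluster, and 44 (25.1%) and 25 (8.42%) in cDC2-like clusters. In erythroid-like cells it was 3 of 2107 cells and 0 of 274 cells, which allows a share of up to 1.09% with a floor of 3 counts and up to 1.34% by the exact interval. The ratio depended on the depth of thinning and was 2.01 without it. Although it uses no clusters, its denominator is cells of all classes, and their mix differed. Macrophage-like cells were 53.2% and 19.6% of kept cells, and erythroid-like cells 10.9% and 2.23%. The part of this mix in the ratio was not tested.

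**Figure D2:**
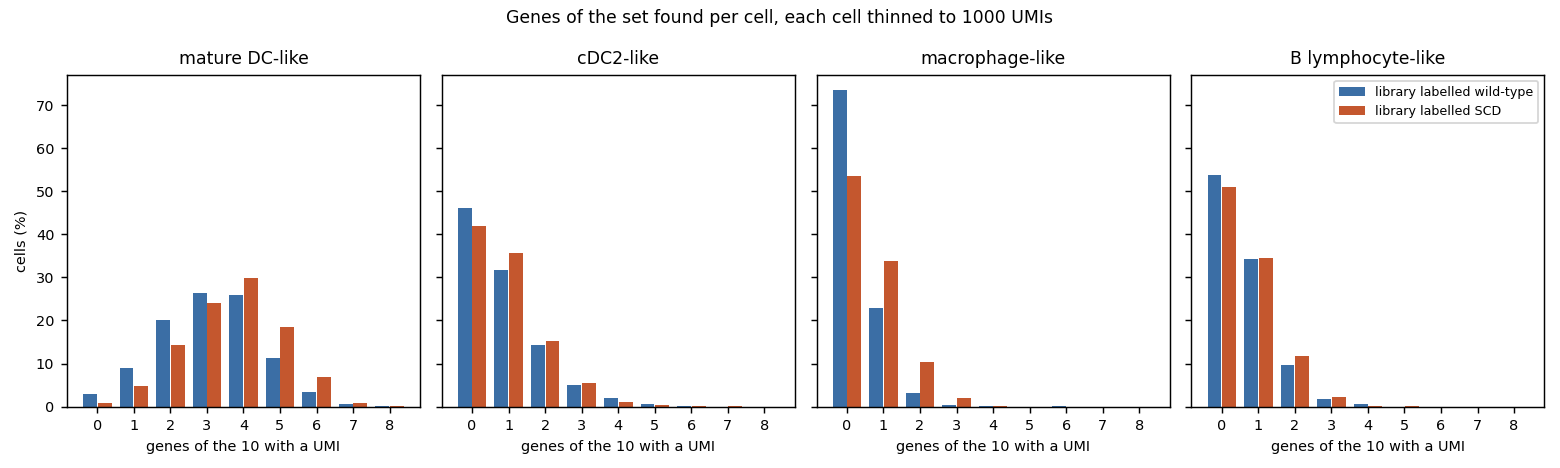
Percent of cells, each thinned to 1000 UMIs, with a UMI of 0 to 8 of the 10 genes, in 4 classes, blue for the wild-type-labelled library and orange for the SCD-labelled library. Mature DC-like cells sit to the right, with at least 3 genes in 67.9% and 80.1% of cells, and the other classes fall off from 0.

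Summed over all kept cells, 8 of the 10 genes were at least 2-fold higher in the SCD-labelled library (background 12.0% of genes) and none was 2-fold lower (9.78%). The exceptions were Cd80 and Cd86. Ccr7 was at 32.4 and 84.7 CPM, Cd40 at 17.2 and 52.6 CPM and Icosl at 40.5 and 114 CPM in this sum. The mix of cells also differed. Macrophage-like cells were 53.2% and 19.6% of kept cells, and erythroid-like cells 10.9% and 2.23%. Mature DC-like cells were 2.28% and 5.40%, cDC2-like cells 12.9% and 24.4%, and B lymphocyte-like cells 3.83% and 16.8%. A different mix of cells and more RNA per cell therefore cannot be told apart in such a sum. The comparisons below are within a class.

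Within mature DC-like cells, 8 of the 10 genes were higher in the SCD-labelled library by intervals wholly above 0 on the log2 scale, a rule that 22.5% of the 6305 genes with at least 100 UMIs there met, with 22.8% wholly below 0. Of the 10, 0 were past 2-fold in either direction. Of the 6305 genes, 2.11% were at least 2-fold higher and 5.22% at least 2-fold lower. The log2 ratio of SCD to wild-type ran from 0.32 (0.24 to 0.41) for Ccr7 to 0.65 (0.53 to 0.76) for Icosl among the 8. Fscn1 was at 0.57 (0.48 to 0.66), Cd83 at 0.59 (0.52 to 0.67) and Relb at 0.48 (0.39 to 0.57). Cd86, at -0.13 (-0.38 to 0.13), and Pdcd1lg2, at -0.03 (-0.45 to 0.40), had intervals that held 0. The median over the 10 genes was 0.56, against 0.0038 over all 6305. With each cell given the same weight the median was 0.34. A higher level was not particular to the 10 genes. The 10 markers of the class summed to 5555 and 9748 CPM in these cells and the 9 cDC2 markers to 531 and 865 CPM. The 7 cDC1 markers went the other way, at 373 and 316 CPM. The summed macrophage markers in these cells differed between the libraries, at 9668 and 3430 CPM, and so did MHC class II, with H2-Ab1 at 2098 and 4219 CPM. Their part in the result was not tested.

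**Figure D3:**
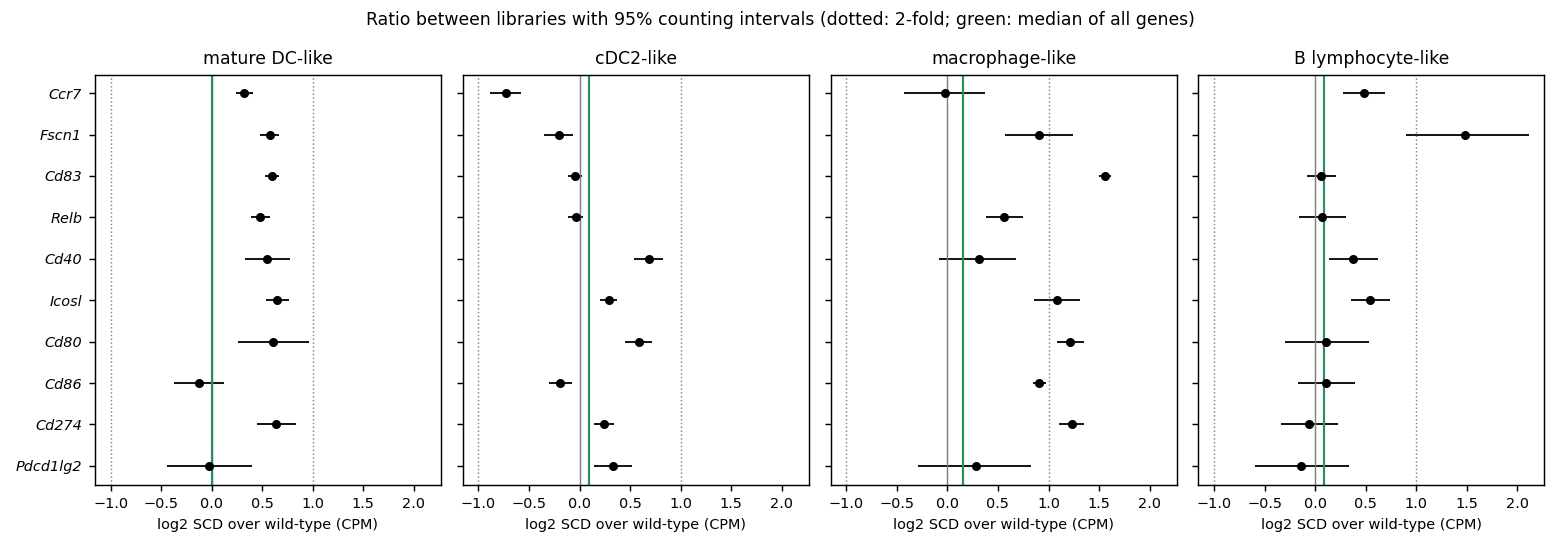
Log2 ratio of the SCD-labelled library to the wild-type-labelled library for each gene in 4 classes, with 95% counting intervals, dotted lines at 2-fold and a green line at the median of all genes. In mature DC-like cells 8 genes lie between 0.32 and 0.65, in cDC2-like cells Ccr7 lies below 0, and in macrophage-like cells Cd83 reaches 1.56.

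In cDC2-like cells 0 of 10 genes were past 2-fold (background 1.52% higher and 6.33% lower of 10757 genes), and the median of the 10 was 0.10, against 0.09 over all genes. RNA of other cells differed here too. The red pulp macrophage markers summed to 9163 and 3678 CPM and the erythroid markers to 2138 and 520 CPM. Their part in the ratios was not tested. Ccr7 stood apart. It was lower in the SCD-labelled library, with a log2 ratio of -0.73 (-0.89 to -0.57), where it was higher in mature DC-like cells. Fscn1 was at -0.21 (-0.35 to -0.06). Cluster by cluster the picture was another. The class held a cluster led by Cdcp1 with 824 cells (32.8% of the class) and 290 cells (9.69%), of which 42.5% and 49.7% were marked as doublets. Over both libraries, its erythroid markers had a median ratio of 14.4 to the larger B lymphocyte-like cluster. That ratio was 1.86 or less in the other clusters of the class. The cluster led by Cdcp1 held 709 of the 837 Ccr7 UMIs (84.7%) and 283 of 552 (51.3%). Within it Ccr7 was at 114 and 136 CPM, with log2 ratio 0.25 (0.05 to 0.45). In the cluster led by Ffar2 Ccr7 was at 11.3 and 17.3 CPM (0.62, 0.06 to 1.18), and in the cluster led by Six3, which held 552 and 1901 cells, at 13.8 and 20.5 CPM (0.57, -0.03 to 1.22). Only in the smallest cluster, led by Cep55 with 163 and 211 cells, was it lower, at 31.8 and 14.6 CPM (-1.13, -1.90 to -0.38). For Fscn1 the log2 ratio was above 0 in all 4 clusters, from 0.16 (-0.24 to 0.58) in the cluster led by Six3 to 1.37 (0.95 to 1.80) in the cluster led by Ffar2. The sign over the whole class thus differed from that in most of its clusters. It also turned with the cell filter, where the log2 ratio over the class was 0.60 for Ccr7 and 0.95 for Fscn1, and with a coarser clustering, at 0.33 and 0.94.

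**Figure D4:**
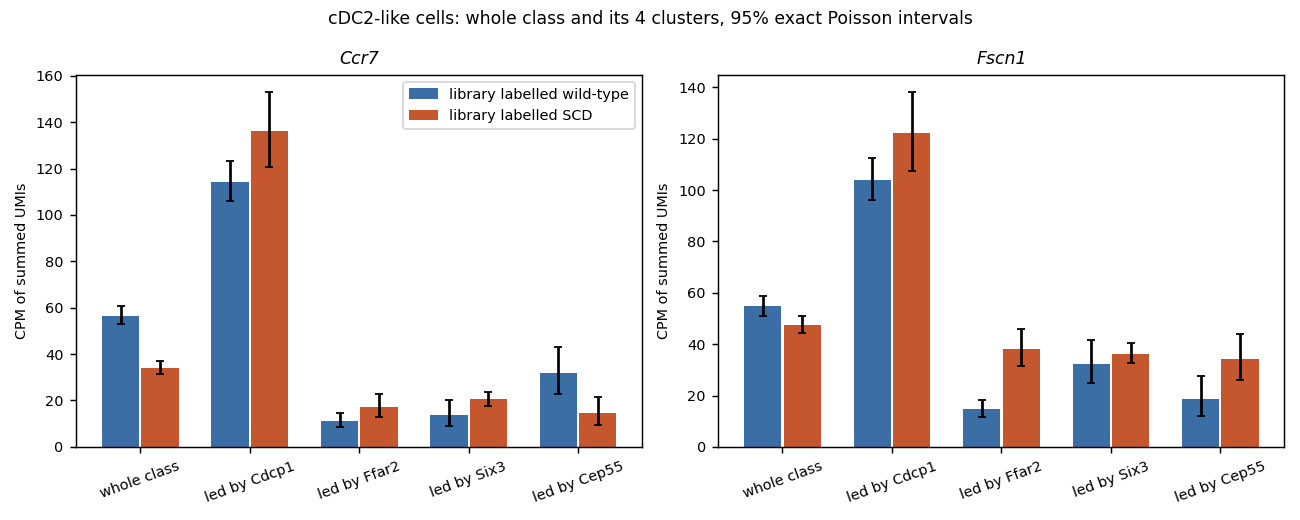
CPM of Ccr7 and Fscn1 in all cDC2-like cells and in the 4 clusters of the class, blue for the wild-type-labelled library and orange for the SCD-labelled library, with 95% exact Poisson intervals. Ccr7 over the whole class is at 56.6 and 34.1 CPM, while in the cluster led by Cdcp1 it is at 114 and 136 CPM.

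The other genes were within 2-fold in cDC2-like cells as well. Cd40 had a log2 ratio of 0.68 (0.54 to 0.83) and Cd80 of 0.58 (0.45 to 0.72), while Cd83, at -0.05 (-0.12 to 0.02), and Relb, at -0.04 (-0.12 to 0.04), had intervals that held 0. In the cluster led by Six3 alone Cd40 was at 71.8 and 80.9 CPM, with log2 ratio 0.17 (-0.09 to 0.45).

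Among those of the 10 genes that had at least 100 UMIs in a class, the largest ratio between the libraries was that of Cd83 in macrophage-like cells. Of the 10 genes 4 were at least 2-fold higher in the SCD-labelled library (background 9.24% of 11322 genes) and 0 were 2-fold lower (8.81%). Cd83 was at 117 and 345 CPM, with log2 ratio 1.56 (1.50 to 1.62). Cd274 was at 29.3 and 68.6 CPM (1.23, 1.10 to 1.36) and Cd80 at 26.0 and 60.5 CPM (1.22, 1.08 to 1.35). The fourth, Icosl, was at 9.89 and 21.0 CPM, against 7.26 and 20.1 CPM in erythroid-like cells, and is read as background. Cd86, at 135 and 253 CPM, missed 2-fold at 0.91 (0.84 to 0.97). Ccr7 was at 5.87 and 5.79 CPM, close to its level in erythroid-like cells. UMIs of Cd83 and Cd86 in the same thinned cell were found in 1.43% (1.20 to 1.70) and 5.91% (4.98 to 6.97) of macrophage-like cells. The class pooled red pulp macrophage clusters with erythroblastic island clusters, which also carried erythroid markers. The libraries drew on different macrophage-like clusters. The largest was an island cluster in the wild-type-labelled library and a red pulp cluster in the SCD-labelled library. Over the class the 10 erythroid markers summed to 5728 and 2140 CPM, and their part in the ratios was not tested. In the SCD-labelled library most cells lay in a cluster led by Rgs1, with 1549 cells, where Cd83 was at 384 CPM and Cd86 at 292 CPM, and in a cluster led by Hbq1a and Adamdec1, with 638 cells, where they were at 292 and 205 CPM. In the wild-type-labelled library the largest cluster, led by Marco with 3526 cells, had Cd83 at 124 CPM and Cd86 at 136 CPM, and over its 8 clusters with at least 50 cells Cd83 ran from 70.7 to 148 CPM. Only 3 clusters had at least 50 cells in both libraries. Cd83 was at 99.4 and 384 CPM in the one led by Rgs1, at 93.9 and 231 CPM in the one led by Hemgn and at 116 and 198 CPM in the one led by Xpo7. The wild-type values in the cluster led by Rgs1 rest on 9 UMIs of Cd83 and 14 of Cd86 from 53 cells, with log2 ratios of 1.95 (1.02 to 3.08) and 0.92 (0.17 to 1.79). The SCD-labelled library had 70 cells in the cluster led by Hemgn, of which 72.9% were marked as doublets, and 51 cells in the one led by Xpo7, with 21.6%. In the wild-type-labelled library 38.4% and 5.57% of the cells of these clusters were marked, by another rule. Cd86 was higher in the SCD-labelled library in the cluster led by Rgs1, at 155 and 292 CPM. It was not higher in those led by Hemgn, at 85.5 and 82.2 CPM, and Xpo7, at 125 and 103 CPM. The class II gene H2-Ab1 was at 199.5 and 1265 CPM in macrophage-like cells, and its part in the result was not tested. The number of genes past 2-fold was 1 with the wider cell filter and 8 with each library clustered on its own, and Cd83 was past 2-fold under each alternative. The share over all genes was not taken under the alternatives, so these counts have no background beside them.

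**Figure D5:**
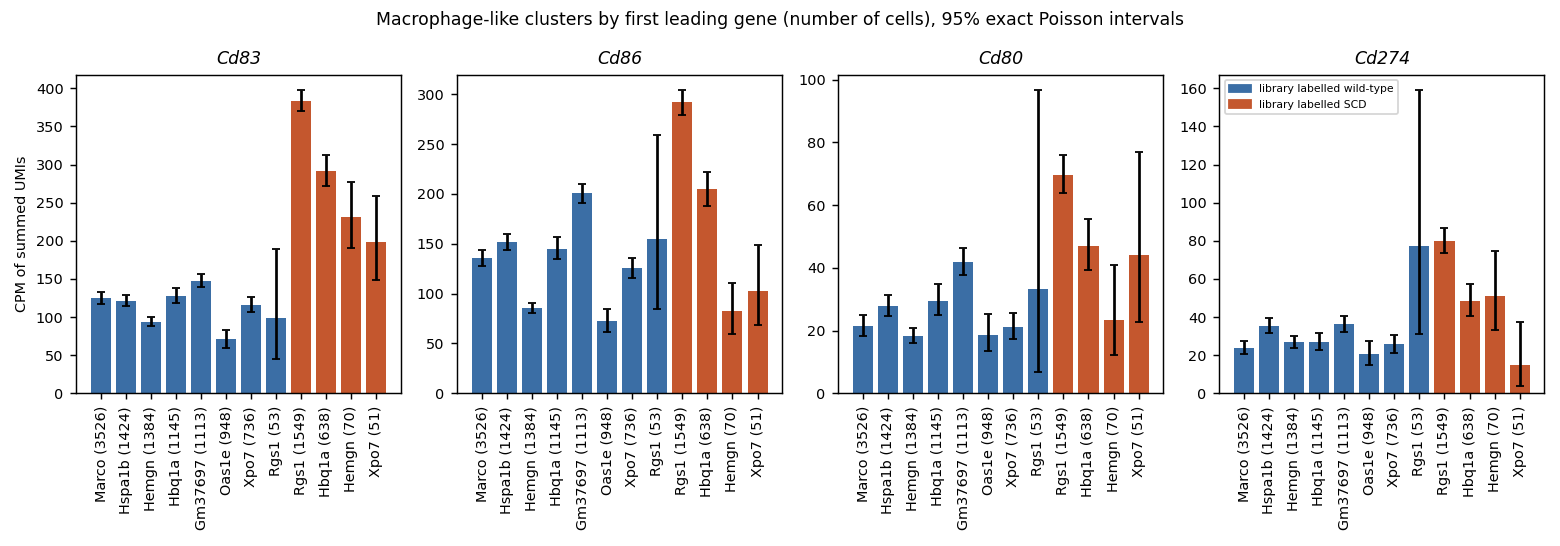
CPM of Cd83, Cd86, Cd80 and Cd274 in each macrophage-like cluster with at least 50 cells in a library, named by its first leading gene with its number of cells, blue for the wild-type-labelled library and orange for the SCD-labelled library, with 95% exact Poisson intervals. Cd83 is at 384 CPM in the cluster led by Rgs1 of the SCD-labelled library and at 148 CPM or less in the clusters of the wild-type-labelled library.

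In B lymphocyte-like cells 1 of 10 genes was past 2-fold, Fscn1, at 9.51 and 26.5 CPM, where the log2 ratio was 1.48. The background was 1.45% higher and 2.34% lower of 9103 genes. Of its UMIs, 19 of 27 and 203 of 237 lay in a second cluster with 103 and 324 cells, of which 56.3% and 96.3% were marked as doublets and where Fscn1 was at 21.9 and 67.8 CPM. With marked doublets removed its log2 ratio was 0.75. In the main B lymphocyte-like cluster it was at 4.06 and 5.72 CPM, close to erythroid-like cells. Ccr7 had a log2 ratio of 0.48 and Icosl of 0.54, and Cd83, Cd86, Cd274 and Relb lay between -0.06 and 0.11. In the Cd209a-led cluster 0 of 10 genes were past 2-fold (background 1.71% higher and 2.25% lower), with log2 ratios from -0.42 for Cd274 to 0.68 for Fscn1. In Ly6c-high monocyte-like cells 0 of the 7 genes with at least 100 UMIs were past 2-fold (2.36% higher and 4.61% lower), and the others, Ccr7, Fscn1 and Pdcd1lg2, had 76, 69 and 39 UMIs. In Ly6c-low monocyte-like cells it was again 0 of 7 (2.49% higher and 2.29% lower). Cd83 was at 140 CPM (124 to 158) and 215 CPM (201 to 230) there, and Ccr7, Fscn1 and Pdcd1lg2 had 19, 9 and 64 UMIs. The red pulp macrophage markers differed in these classes as well. They summed to 5555 and 2170 CPM in B lymphocyte-like cells and to 7702 and 3462 CPM in the Cd209a-led cluster. The sums were 7075 and 3093 CPM in Ly6c-high and 10145 and 6278 CPM in Ly6c-low monocyte-like cells. Their part in the ratios was not tested.

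Other genes of these pathways were read in mature DC-like cells from 6 lists, over genes with at least 20 UMIs, of which 4.34% were at least 2-fold higher and 8.31% at least 2-fold lower over the whole matrix. Of the costimulatory and adhesion ligands 1 of 4 was past 2-fold: Cd1d1, which presents lipids to NKT cells, was at 29.5 and 85.3 CPM, with log2 ratio 1.53 (1.11 to 1.98). Of the coinhibitory ligands 1 of 6 was, Lgals9 (galectin-9), at 60.0 and 14.9 CPM, with log2 ratio -2.01 (-2.55 to -1.50). In macrophage-like cells Lgals9 was at 120 and 60.6 CPM, and the red pulp macrophage markers summed to 9668 and 3430 CPM in the mature DC-like cells, with C1qa at 1567 and 503 CPM. Their part in the result was not tested. Of the receptors of these ligands 2 of 6 were, Tnfrsf9 (4-1BB), at 34.1 and 70.8 CPM, and Tnfrsf18 (GITR), at 27.4 and 66.3 CPM. None of the 15 NF-kB subunits and regulators passed 2-fold, although their median log2 ratio was 0.49.

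In the migration list 2 of 11 genes were past 2-fold, both higher: Ccl22, the chemokine of mature DCs that draws CCR4-positive T cells, was at 3.62 and 42.5 CPM, from 7 and 123 UMIs, with log2 ratio 3.55 (2.47 to 4.90), and Myo1g, a myosin of blood cells, at 150 and 303 CPM. Ccl22 was also one of the markers that named the class. Of the 8 cytokine genes 4 were lower. Il12b, the shared subunit of IL-12 and IL-23, was at 218 and 82.6 CPM, with log2 ratio -1.40 (-1.63 to -1.17). Il18 was at 92.0 and 27.6 CPM (-1.74, -2.13 to -1.35), Il6 at 17.1 and 3.11 CPM and Il27 at 8.79 and 3.80 CPM, the last from 28 UMIs. The macrophage markers in these cells differed in the same direction, as given above. Il18 was at 169 and 150 CPM in macrophage-like cells, and Il12b at 1.40 CPM in those of the wild-type-labelled library. The part of macrophage RNA in the lower cytokine levels was not tested. Il15ra, which presents IL-15 to lymphocytes, was higher, at 11.9 and 32.8 CPM. The median log2 ratio of the cytokine list was -0.72, against 0.56 for the 10 genes in the same cells.

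The genes whose levels over clusters were most like each of the 10 were taken by Pearson correlation of log2(CPM + 1) over clusters with at least 50 cells, 25 and 19 of them. These points share a library, and genes among the most variable took part in forming the clusters, so the values are a description. The most like Ccr7 were Tmem123 (0.90 and 0.87), Apobec3 and Cd200, of which Tmem123 and Cd200 are among the markers that named the class. Relb went with Lpar3 (0.94 and 0.92), Traf1 (0.92 and 0.95) and Plxnc1, and Fscn1 with H2-M2 (0.89 and 0.85), Slco5a1 and Gm37551. Cd40 went with Phf11b, Malt1 (0.92 and 0.90) and Haao, Icosl with St8sia6 (0.94 and 0.91), Plxnc1 and Slamf7, and Cd83 with Enox2 (0.83 and 0.86), Basp1 and Tspan3. Cd274 was most like Bcl2a1d (0.91 and 0.90), Gfpt1 and Bcl2a1b, of which Bcl2a1d and Bcl2a1b are close copies that can share reads. Pdcd1lg2 was most like H2-Q6 (0.92 and 0.91), Dtx1 and Ltb, Cd80 most like Arhgef2 (0.93 and 0.93), Bcl9 and Ttc39b, and Cd86 most like Gkap1 (0.95 and 0.92), Snx24 and Dip2c. Among the 10 genes themselves, Icosl and Relb were the pair most alike in both libraries by the lower of the values, at 0.92 and 0.92, and the values of Cd86 with Ccr7 were -0.01 and -0.16.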

How the data were processed

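The data are 2 droplet single-cell RNA libraries of F4/80-enriched mouse spleen, 1 per condition. The authors deposited unnormalized UMI counts for each gene in each barcode, made with Cell Ranger. The submitters' processing notes name Cell Ranger 4.0.0 and the build GRCm38.p6, and the headers of the matrices name another release. The libraries held 24144 and 15442 barcodes with 145953464 and 73986356 UMIs (wild-type first). No sample was left out and 0 columns were unused.

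From the deposited counts, barcodes were kept that had 500 to 5000 genes, less than 15% of UMIs from mitochondrial genes and less than 30% from ribosomal-protein genes. They were scaled by size factors of scran 1.30.0 (R 4.3.3). The 10 genes described, those with symbols that begin with Hba- or Hbb-, and Xist, Tsix, Ddx3y, Eif2s3y, Kdm5d and Uty were left out. Of the other genes, the 2000 most variable gave 30 principal components, a graph of 15 neighbours and 26 Leiden clusters (resolution 1, scanpy 1.11.5, igraph 0.11.9, Python 3.11.15). Of these clusters, 23 were named from at least 3 markers found in at least 10% of cells. Those markers had to be at least 2 times their level in the other cells, except for macrophage-like clusters, where the median red pulp macrophage marker had to be at least 4 times as high as in the larger B lymphocyte-like cluster. A cluster that met these rules still stayed unnamed where markers of another cell type outnumbered its own among its 10 leading genes. The Cd209a-led cluster had passed 4 Ly6c-low monocyte markers, but held 1 marker of that class and 2 DC markers among those genes. Red pulp macrophage and erythroblastic island clusters were read together as macrophage-like. Scrublet doublets, 1894 (the highest-scoring 10%, since its automatic threshold marked 0) and 1712 barcodes (by the automatic threshold), were marked and left in. With these different rules the shares marked are not comparable between the libraries.

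UMIs were summed by class and library and given as CPM, with exact Poisson intervals. Shares had exact binomial intervals. Ratios between libraries or classes, and the ratio of shares of cells, had exact conditional intervals. Background shares are over genes with at least 100 UMIs. The ratio and its interval were run on counts simulated with Poisson error alone for mature DC-like cells. Of 200 genes among 6305, each changed by more than 2-fold, 99.5% were found past 2-fold. Of all intervals, 95.9% held the known value. The simulation largely set this outcome, so it checks the arithmetic. It holds no smaller changes and no spread between cells or mice. With 1 mouse per condition there was no test. The precision is that of counting alone.

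Named were the 10 genes, for each the 3 genes most like it over clusters, and list genes past 2-fold with at least 20 UMIs. The genes and lists were chosen with earlier results of these data known. Alternatives changed the cell filter, doublets, clustering genes, resolution (0.5 and 2), joint clustering, scaling, thinning depth and the weight of each cell. The cDC2-like cluster led by Six3 alone was added after the data had been seen.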

Additional observations from a re-analysis of the deposited data

Results flagged for a closer look

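Ccr7 and Fscn1 had opposite signs between the libraries in the DC-like classes. The log2 ratio of the SCD-labelled library to the wild-type-labelled library was 0.32 for Ccr7 in mature DC-like cells and -0.73 in cDC2-like cells. For Fscn1 it was 0.57 and -0.21. With 1 library per condition the difference between the classes was not tested. The opposite sign did not hold cluster by cluster: in cDC2-like clusters the log2 ratio was above 0 for Fscn1 in 4 of 4 and for Ccr7 in 3 of 4. Over the class it was 0.60 for Ccr7 and 0.95 for Fscn1 with the wider cell filter, and 0.33 and 0.94 at the clustering resolution of 0.5. The cluster led by Cdcp1, which held 84.7% and 51.3% of the Ccr7 UMIs of cDC2-like cells, made up 32.8% and 9.69% of the cells of that class, and its part in the result was not tested.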

How the results depend on the processing

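In mature DC-like cells 0 of the 10 genes were past 2-fold under each alternative, and the median log2 ratio ran from 0.34 (each cell weighted the same) to 0.57. Of 90 values of single genes there, 2 had the opposite sign. The number higher in mature DC-like than in cDC2-like cells was 6 under each alternative except the cluster led by Six3 alone, where it was 5. Over the classes, 5 values were past 2-fold between the libraries. It was 3 with the wider cell filter and 12 with each library clustered on its own, and the cause was not tested. Shares over all genes were taken in the main setting alone, so the counts under the alternatives have no background. In cDC2-like cells 18 of 100 values had the opposite sign and in B lymphocyte-like cells 22 of 90. The ratio of cells with Ccr7 and Fscn1 UMIs, 2.60, was 2.14 when thinned to 2000 UMIs and 2.01 when not thinned, and between 2.35 and 2.48 under the other alternatives. No paired analysis was possible because each condition had 1 library. Low UMI counts limit Ccr7, Fscn1 and Pdcd1lg2 in monocyte-like cells.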
